A study of Mus musculus with 8 samples.

Results

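The 35 genes described here mark endothelial cells, the cells that line blood vessels, and were read from the 23358 gene rows of the deposited table by their symbols. They comprise 21 pan-endothelial genes, 8 arterial genes, 3 venous genes and 3 adhesion genes, and all 35 had a row. The tissue was the outflow vein of a fistula between the carotid artery and the jugular vein in C57BL6J mice in which chronic kidney disease had been induced. The fistula was made 28 days after that, and the veins were harvested 3 days later. In the MSC group, 4 samples came from veins on whose outer layer (adventitia) 250000 mesenchymal stem cells from a C57 donor had been laid, and in the vehicle group 4 samples came from veins given vehicle. Every vein in both groups carried the fistula and came from a mouse with kidney disease, so no unoperated vein stands beside them. Whether each sample is its own animal is not stated in the labels, so p-values reflect only how these samples vary, which may be technical. RNA of the donor cells, also from a C57 donor, cannot be told apart from that of the vein.

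Endothelial cells hold their junctions together with cadherins, claudins and immunoglobulin-like proteins, and keep their identity through ETS-family and SoxF transcription factors. Arterial identity is known to depend on Notch signalling through Dll4, on Sox17 and on the ephrin ligand Efnb2, and venous identity on the nuclear receptor Nr2f2 and the ephrin receptor Ephb4. Activated endothelium displays selectins and Vcam1, which slow and hold circulating leukocytes. When a vein is joined to an artery its endothelium meets arterial flow.

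Levels are RPKM, read counts scaled to gene length and to library size, so they can be compared between genes. The whole reads recovered from the steps in the deposited values came to 29877330 to 38243252 per MSC sample, against 26947202 to 33266719 per vehicle sample. Differences were tested in limma on log2(RPKM + 1), over the 12129 genes whose average across the 8 samples reached 1 RPKM. A log2 fold change (MSC over vehicle) on that scale understates the change of low genes. SEs of the log2 fold changes of the 35 genes lay between 0.11 and 0.55. Of all genes tested, 28 (0.231%) passed an adjusted p of 0.05, of which 3 (0.0247%) were higher and 25 (0.206%) lower in MSC samples.

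Of the 35 endothelial genes, 34 were tested and 0 passed the adjusted threshold in limma, in either direction, beside the 0.231% of all genes (0.0247% higher and 0.206% lower). At an unadjusted p under 0.05 there were 4, all at lower values in MSC samples: Sox17, Cldn5, Gja4 and Ptprb. That is 11.8% of the 34, against 16.5% of all genes in either direction and 6.36% in the lower direction. The groups did not overlap in 2 genes, Sox17 and Gja4, which is 5.88% of the 34, against 9.78% of all genes (4.17% lower and 5.61% higher in MSC samples). Sox17 is in both of these counts, but its MSC mean was 0.760 RPKM. It passed the filter only through its vehicle values, so neither count stands as support for a change. In limma voom on the recovered reads 0 passed as well, where 6 genes of the whole table were called higher and 31 lower. The remaining gene, Gja5, had a mean under 1 RPKM and was read from the fit with no filter. Log2 fold changes were below 0 in 20 of the 34 genes (58.8%, against 40.5% of all genes), with a median of -0.07 against 0.04 over all genes tested. The median was -0.09 for pan-endothelial, -0.05 for arterial, 0.13 for venous and 0.04 for adhesion genes.

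**Figure D1:**
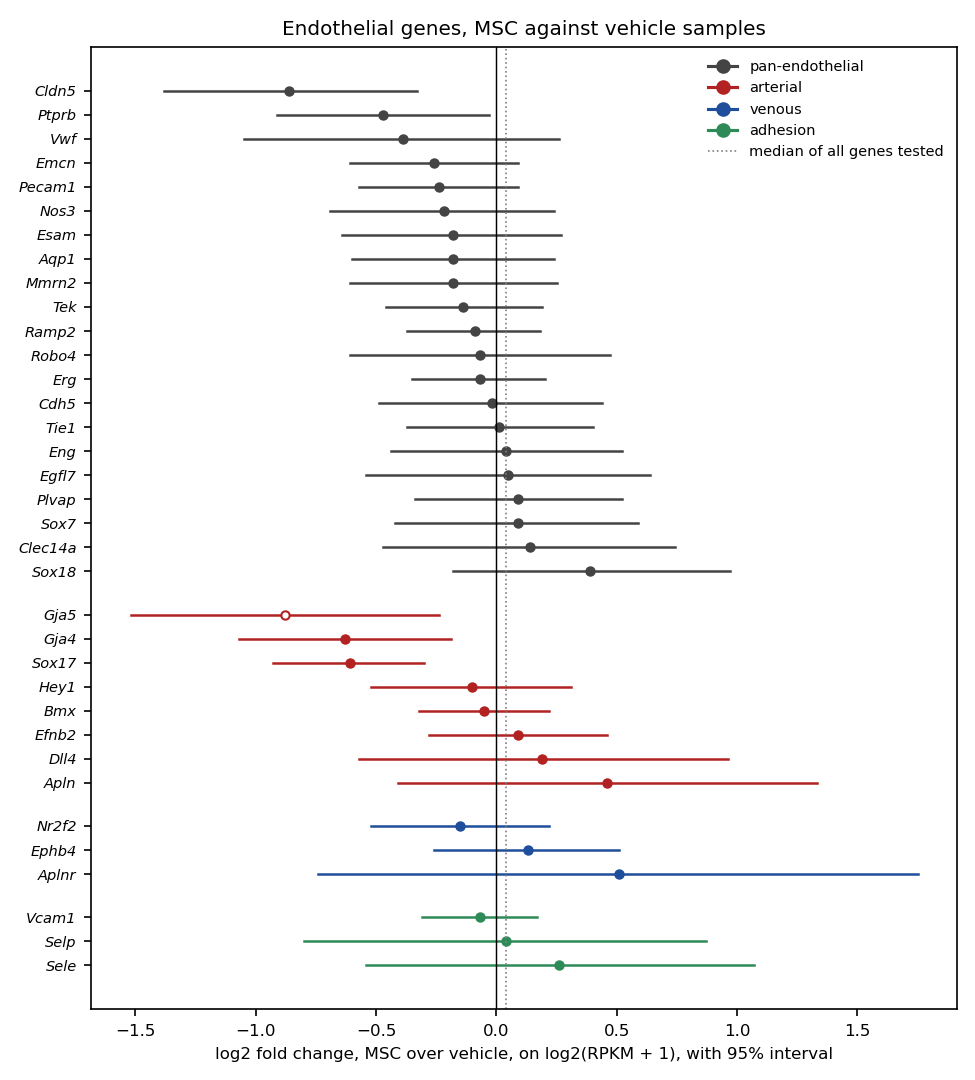
Log2 fold change of the 35 endothelial genes (x axis, MSC over vehicle on log2(RPKM + 1), limma, n = 4 each), grouped by class down the page, with 95% intervals as bars. The open circle is Gja5, taken from the fit with no filter, and the dotted line is the median of all genes tested, 0.04; the intervals of Cldn5, Ptprb, Gja5, Gja4 and Sox17 lie below 0, none after adjustment over all genes.

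The labelled tissue carried its endothelial markers in every sample. The mean over all 8 samples was highest for the water channel gene Aqp1 at 152 RPKM and the junction gene Pecam1 at 143 RPKM, and the 21 pan-endothelial genes ranged down to 7.56 RPKM for Cldn5. The arterial genes were the lowest class, with means over all 8 samples between 0.799 RPKM for Gja5 and 8.53 RPKM for Apln. Venous genes lay between 11.7 RPKM for Nr2f2 and 36.7 RPKM for Aplnr. Adhesion genes lay between 29.7 RPKM for Vcam1 and 111 RPKM for Selp. In these bulk samples, fewer endothelial cells and less RNA per endothelial cell cannot be told apart.

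Among the junction genes, Pecam1, which encodes the adhesion protein CD31, measured 109, 149, 162 and 108 RPKM in MSC samples 1 to 4, against 171, 139, 152 and 153 RPKM in vehicle samples 1 to 4. Cdh5, the gene of VE-cadherin, had 46.6, 83.5, 84.6 and 60.8 RPKM in the 4 MSC samples, against 53.0, 64.8, 74.5 and 83.7 RPKM in the 4 vehicle samples. The lowest Pecam1 values were in MSC replicates 1 and 4, and the groups overlapped in both genes (log2 fold change -0.24 for Pecam1 and -0.02 for Cdh5). Esam, another junctional immunoglobulin-like protein gene, was at 34.7, 57.5, 62.1 and 41.0 RPKM in MSC replicates 1 to 4, against 41.1, 56.2, 63.4 and 58.5 RPKM in vehicle replicates 1 to 4. Cldn5, the main claudin of endothelial tight junctions, measured 4.60, 6.48, 4.96 and 3.88 RPKM in MSC samples 1 to 4, against 10.7, 5.47, 13.3 and 11.05 RPKM in vehicle samples 1 to 4. Its 4 MSC values were all below those of 3 vehicle samples, and only vehicle replicate 2 lay within the MSC range. The Cldn5 means were 4.98 ± 1.10 RPKM among MSC samples and 10.1 ± 3.32 RPKM among vehicle samples (SD, n = 4 each), a log2 fold change of -0.86 with a 95% interval of -1.38 to -0.33 (limma unadjusted p = 0.00491, adjusted p = 0.134). With the adipocyte marker score as a covariate it was -0.59 (unadjusted p = 0.178). Over all alternatives its limma adjusted p ran from 0.0902 to 0.841.

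The angiopoietin receptor gene Tek had 22.7, 27.4, 32.3 and 21.1 RPKM in the 4 MSC samples, against 28.2, 27.4, 24.3 and 33.4 RPKM in the 4 vehicle samples. Tie1, the partner receptor of Tek, was at 46.1, 67.1, 78.5 and 50.9 RPKM in MSC replicates 1 to 4, against 58.0, 57.9, 50.7 and 69.7 RPKM in vehicle replicates 1 to 4. Ptprb, whose product VE-PTP is a phosphatase that restrains Tek, measured 14.7, 20.2, 26.1 and 16.9 RPKM in MSC samples 1 to 4, against 36.7, 26.7, 21.9 and 24.0 RPKM in vehicle samples 1 to 4. Vehicle replicate 1 was the highest and MSC replicate 1 the lowest Ptprb value, and MSC replicate 3 overlapped the vehicle range. The Ptprb log2 fold change was -0.47 (limma unadjusted p = 0.0387, adjusted p = 0.273), beside -0.14 for Tek and 0.01 for Tie1. Without MSC replicate 1, 2 or 4, or without vehicle replicate 1 or 2, Ptprb no longer had an unadjusted p under 0.05 in limma. The same held with array weights (unadjusted p = 0.0963) and once the adipocyte score entered as a covariate, where its log2 fold change was -0.04 (unadjusted p = 0.901).

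Other surface receptors and their partners had overlapping groups. Eng, a co-receptor for the TGF-beta family, had 53.0, 98.2, 108 and 67.2 RPKM in the 4 MSC samples, against 64.8, 75.4, 77.5 and 88.2 RPKM in the 4 vehicle samples. Robo4, a guidance receptor that stabilises vessels, was at 6.24, 13.0, 11.3 and 7.66 RPKM in MSC replicates 1 to 4, against 6.74, 9.09, 13.3 and 10.7 RPKM in vehicle replicates 1 to 4. Both were lowest in MSC replicate 1 and both had fold changes near 0 (0.04 for Eng and -0.07 for Robo4). Clec14a, a C-type lectin of endothelium, measured 10.9, 16.0, 17.9 and 13.0 RPKM in MSC samples 1 to 4, against 8.31, 11.5, 11.9 and 23.3 RPKM in vehicle samples 1 to 4. Mmrn2, the matrix protein that binds Clec14a, had 30.6, 44.3, 49.3 and 28.8 RPKM in the 4 MSC samples, against 36.2, 48.3, 36.4 and 50.5 RPKM in the 4 vehicle samples. Vehicle replicate 4 was the highest sample in both of these genes, and the groups overlapped. Ramp2, which pairs with the adrenomedullin receptor, was at 39.3, 50.5, 54.0 and 37.8 RPKM in MSC replicates 1 to 4, against 51.1, 48.3, 46.7 and 46.0 RPKM in vehicle replicates 1 to 4. The Ramp2 values of the 4 vehicle samples lay inside the range of the MSC samples.

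Genes of endothelial function were likewise overlapping between groups. Nos3, the endothelial nitric oxide synthase gene, measured 13.6, 18.9, 23.1 and 15.0 RPKM in MSC samples 1 to 4, against 30.4, 18.1, 17.9 and 17.4 RPKM in vehicle samples 1 to 4. Vehicle replicate 1 stood alone at the top of Nos3, whose log2 fold change was -0.22. Vwf, the gene of von Willebrand factor, had 58.1, 85.3, 108 and 50.8 RPKM in the 4 MSC samples, against 113, 94.0, 58.6 and 132 RPKM in the 4 vehicle samples. Egfl7, a secreted endothelial factor, was at 44.2, 79.5, 84.2 and 57.1 RPKM in MSC replicates 1 to 4, against 38.2, 65.7, 72.5 and 80.7 RPKM in vehicle replicates 1 to 4. In Vwf the vehicle range was the wider, from 58.6 to 132 RPKM, and MSC replicates 1 and 4 were the lowest samples together with vehicle replicate 3. Emcn, a mucin-like protein of veins and capillaries, measured 49.6, 72.2, 77.1 and 48.4 RPKM in MSC samples 1 to 4, against 77.0, 71.9, 70.1 and 71.8 RPKM in vehicle samples 1 to 4. Plvap, which forms the diaphragms of fenestrae and caveolae, had 86.5, 137, 158 and 87.3 RPKM in the 4 MSC samples, against 102, 104, 105 and 115 RPKM in the 4 vehicle samples. Aqp1 was at 135, 161, 164 and 108 RPKM in MSC replicates 1 to 4, against 173, 197, 115 and 164 RPKM in vehicle replicates 1 to 4. In Emcn and Plvap the 4 vehicle samples lay close together, with highest to lowest ratios of 1.10 and 1.13, against 1.59 and 1.83 among the MSC samples.

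The transcription factor genes of this class had overlapping groups. Erg, the ETS factor that maintains endothelial identity, measured 11.6, 14.9, 17.1 and 13.3 RPKM in MSC samples 1 to 4, against 13.2, 14.2, 15.9 and 16.5 RPKM in vehicle samples 1 to 4. Among the SoxF factors, Sox7 had 5.86, 10.6, 10.1 and 7.65 RPKM in the 4 MSC samples, against 4.73, 9.17, 8.96 and 9.35 RPKM in the 4 vehicle samples. Sox18 was at 26.1, 50.5, 54.0 and 35.04 RPKM in MSC replicates 1 to 4, against 19.98, 31.0, 37.0 and 35.4 RPKM in vehicle replicates 1 to 4. Sox18 had the largest positive log2 fold change of the class, 0.39, with a 95% interval of -0.18 to 0.97 (limma adjusted p = 0.48), and Erg and Sox7 had -0.07 and 0.09. In both Sox7 and Sox18 the lowest of all 8 samples was vehicle replicate 1.

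One split of the MSC samples ran through the whole pan-endothelial class. In all 21 genes, MSC replicates 1 and 4 both lay below MSC replicates 2 and 3. The split was not particular to this class. It also held in the venous genes Nr2f2, Ephb4 and Aplnr, and in the adhesion genes Sele and Selp but not Vcam1. Among arterial genes it held in Gja4, Gja5, Hey1 and Bmx but not in Sox17, Efnb2, Apln or Dll4. The share of all genes with this split was not taken. Of the 21 genes, MSC replicate 1 was the lowest of all 8 samples in 9 and MSC replicate 4 in 8, and MSC replicate 3 was the highest of all 8 samples in 9. The summed level of the class was 849, 1264, 1387 and 879 RPKM in MSC replicates 1 to 4, against 1137, 1175, 1087 and 1294 RPKM in vehicle replicates 1 to 4. The 2 lowest and the highest of these sums were all MSC samples, so the vehicle range lay inside the MSC range.

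**Figure D2:**
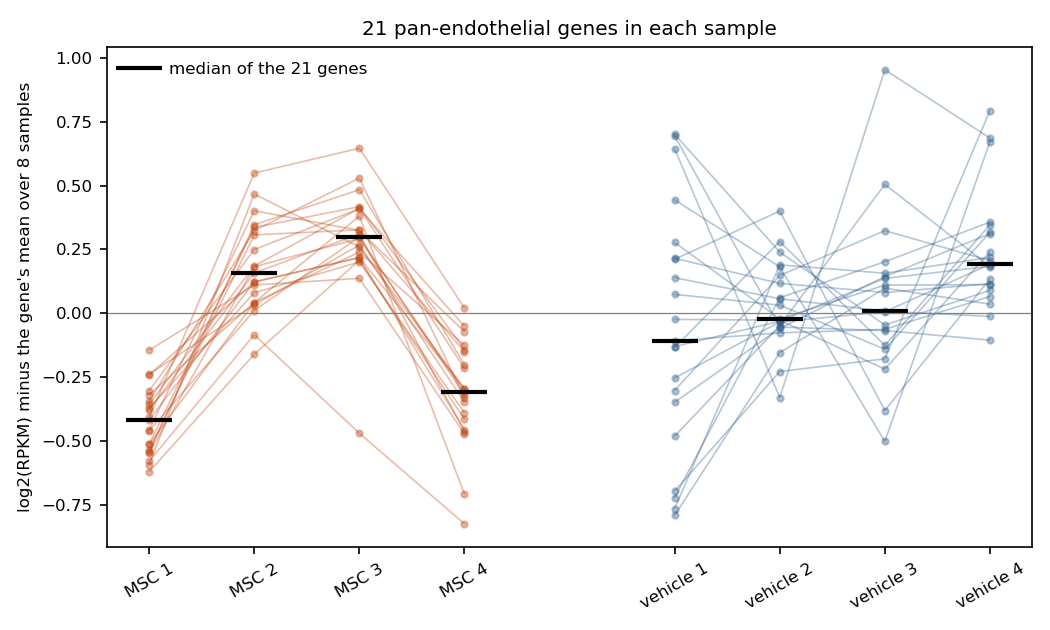
Each point is 1 of the 21 pan-endothelial genes in 1 sample, as log2(RPKM) minus that gene's own mean over the 8 samples (y axis), with samples on the x axis and thin lines joining the values of the same gene within a group. Black bars are medians of the 21 genes; in every gene MSC replicates 1 and 4 lie below MSC replicates 2 and 3.

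Summed adipocyte markers showed the same split within the MSC group, with replicates 1 and 4 below replicates 2 and 3. The 14 adipocyte markers summed to 504, 1498, 2059 and 452 RPKM in MSC replicates 1 to 4, against 3512, 3757, 3668 and 5089 RPKM in vehicle replicates 1 to 4. All 14 were tested, none was at 0, the median log2 fold change was -2.03 and 0 passed in limma (lowest adjusted p 0.0567 for Lpl). An unadjusted p under 0.05 in limma was found in 13, all lower in MSC samples, against 6.36% of all genes in that direction. In 10 of the 14 every MSC value lay below every vehicle value, against 4.17% of all genes. Thus the MSC samples with the lowest endothelial sums, replicates 1 and 4, also had the lowest adipocyte sums. Their part in the endothelial values was not tested. Among these markers, Fabp4 is known also from capillary endothelium. With the adipocyte marker score as a covariate the pan-endothelial median log2 fold change was 0.51, beside a median of 0.10 for all genes tested, and Plvap had 0.85 and Eng 0.85. No endothelial gene passed in that fit in limma either (lowest adjusted p = 0.835), and 0 genes of the whole table were called higher or lower. The score lay between 3.52 and 5.52 in MSC samples, against 5.89 to 6.53 in vehicle samples, so the fit compares groups that share no score. Skeletal muscle markers did not follow the endothelial split. Their sums were 846, 803, 792 and 12.5 RPKM in MSC replicates 1 to 4, against 625, 73.2, 5.46 and 138 RPKM in vehicle replicates 1 to 4. All 12 log2 fold changes were above 0 (median 1.55, none passing).

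**Figure D3:**
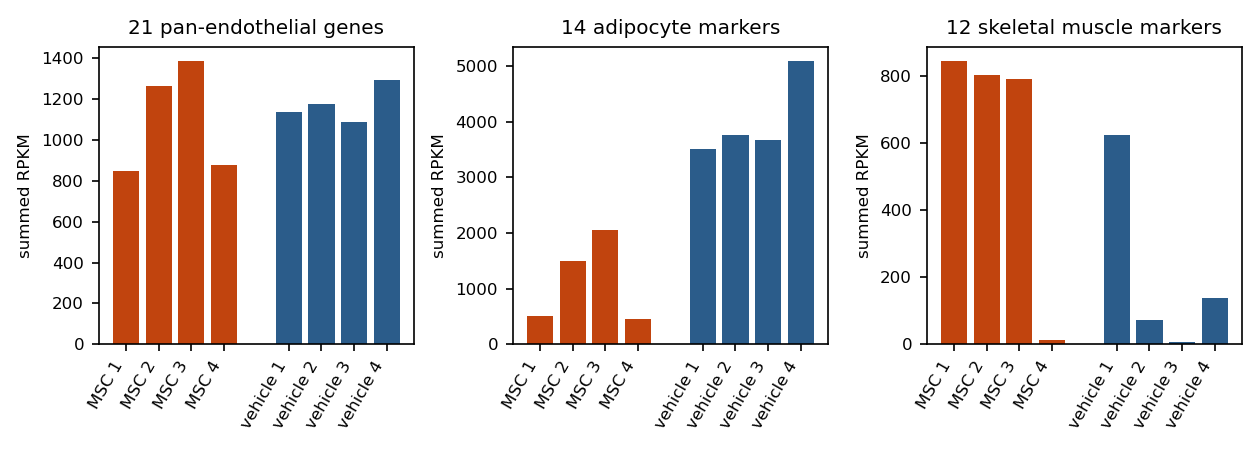
Summed RPKM (y axis) of the 21 pan-endothelial genes, 14 adipocyte markers and 12 skeletal muscle markers in each sample (x axis). MSC replicates 1 and 4 have the lowest endothelial sums, 849 and 879 RPKM, and the lowest adipocyte sums, 504 and 452 RPKM.

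In the arterial class, Sox17 and the connexin genes Gja4 and Gja5 had low MSC values, while the Notch ligand gene Dll4 and the other arterial genes had overlapping groups, with log2 fold changes on both sides of 0. Sox17, the SoxF factor of arterial endothelium, measured 0.391, 0.895, 0.858 and 0.896 RPKM in MSC samples 1 to 4, against 1.40, 1.79, 2.14 and 1.42 RPKM in vehicle samples 1 to 4. All 4 MSC samples lay below all 4 vehicle samples. Means were 0.760 ± 0.246 RPKM among MSC samples and 1.69 ± 0.351 RPKM among vehicle samples (SD, n = 4 each), a log2 fold change of -0.61 with a 95% interval of -0.93 to -0.30 (limma unadjusted p = 0.00166, adjusted p = 0.0964). The recovered reads were 50, 130, 143 and 126 in MSC samples, against 202, 250, 294 and 174 in vehicle samples, and limma voom on them gave a log2 fold change of -1.21 (adjusted p = 0.0913). Because the MSC mean is under 1 RPKM, Sox17 was among the genes tested only through its vehicle values. Its adjusted p came nearest to the threshold with quantile normalization, at 0.0501, and was 0.835 with the adipocyte score as a covariate, where the log2 fold change was -0.44.

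Gja4, which encodes connexin 37 of endothelial gap junctions, had 0.965, 1.98, 1.80 and 1.27 RPKM in the 4 MSC samples, against 1.999, 3.91, 3.54 and 2.16 RPKM in the 4 vehicle samples. MSC replicate 2 and vehicle replicate 1 lay close together, so the groups were separate by a narrow margin. Means were 1.51 ± 0.468 RPKM among MSC samples and 2.90 ± 0.963 RPKM among vehicle samples (SD, n = 4 each), a log2 fold change of -0.63 with a 95% interval of -1.07 to -0.19 (limma unadjusted p = 0.0103, adjusted p = 0.17). With the adipocyte score as a covariate it was -0.21 (unadjusted p = 0.507). Gja5, which encodes connexin 40 of arterial endothelium, was at 0.158, 0.201, 0.526 and 0.0143 RPKM in MSC replicates 1 to 4, against 0.508, 1.99, 2.34 and 0.656 RPKM in vehicle replicates 1 to 4. These rest on recovered reads of 20, 29, 87 and 2 in MSC samples, against 73, 276, 320 and 80 in vehicle samples. MSC replicate 3 lay just above vehicle replicate 1, and the other MSC values were below the whole vehicle range. The fit with no filter, over 19695 genes, gave Gja5 a log2 fold change of -0.88 (limma unadjusted p = 0.013, adjusted p = 0.248; -0.52 with the covariate), in a fit where 13.5% of all genes had an unadjusted p under 0.05.

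**Figure D4:**
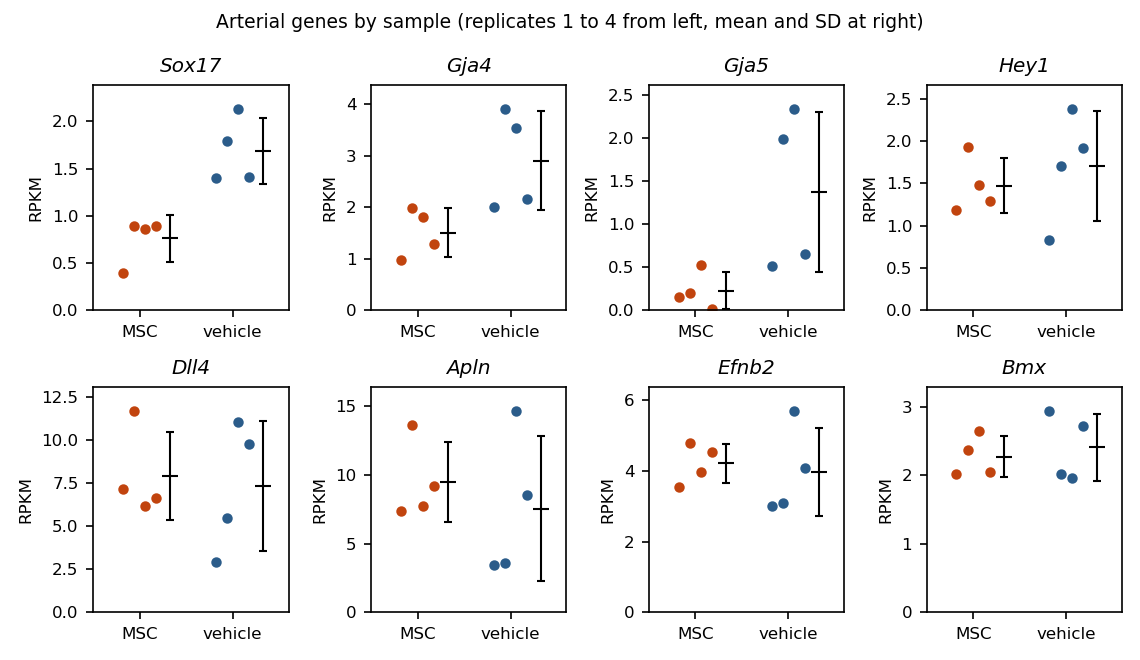
RPKM (y axis, from 0) of the 8 arterial genes in MSC and vehicle samples, 1 point per sample with replicates 1 to 4 from left to right, and the mean with SD beside them (n = 4 each). In Sox17 and Gja4 every MSC point lies below every vehicle point, and in Gja5 only MSC replicate 3 reaches the vehicle range; in the other 5 genes the groups overlap.

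The Notch ligand gene Dll4 measured 7.16, 11.7, 6.15 and 6.64 RPKM in MSC samples 1 to 4, against 2.94, 5.46, 11.1 and 9.79 RPKM in vehicle samples 1 to 4. Hey1, a transcriptional repressor induced by Notch, had 1.19, 1.92, 1.48 and 1.29 RPKM in the 4 MSC samples, against 0.825, 1.70, 2.38 and 1.92 RPKM in the 4 vehicle samples. Apln, the apelin gene, a mark of sprouting tip cells, was at 7.40, 13.7, 7.72 and 9.20 RPKM in MSC replicates 1 to 4, against 3.45, 3.59, 14.7 and 8.53 RPKM in vehicle replicates 1 to 4. In these 3 genes vehicle replicate 3 was the highest vehicle sample and vehicle replicate 1 the lowest, and their spread covered or nearly covered the MSC values. Vehicle values of Apln differed by a factor of 4.26 and those of Dll4 by a factor of 3.76, and the log2 fold changes of 0.46 and 0.19 were smaller than the SDs of the vehicle samples on that scale, 0.88 and 0.74. Efnb2, the arterial ephrin ligand, measured 3.56, 4.79, 3.96 and 4.54 RPKM in MSC samples 1 to 4, against 3.02, 3.09, 5.70 and 4.08 RPKM in vehicle samples 1 to 4. Bmx, a tyrosine kinase gene of arterial endothelium, had 2.01, 2.37, 2.65 and 2.05 RPKM in the 4 MSC samples, against 2.94, 2.02, 1.97 and 2.71 RPKM in the 4 vehicle samples. Efnb2 and Bmx had log2 fold changes of 0.09 and -0.05, and Hey1 had -0.10. Vehicle replicate 3 was the highest vehicle sample in 6 of the 8 arterial genes, and vehicle replicate 1 was the lowest in 7.

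Promoter sequences are shown for the 3 genes with low MSC values for which the RefSeq table (GRCm38.p6) held one, and for Tie1, whose fold change was near 0. Each window holds 250 bases before and 50 after the annotated start and is written 5′ to 3′ on the gene's strand. The windows are chr4:127313990-127314289 on the minus strand for Gja4, chr3:97032152-97032451 on the plus strand for Gja5, chr16:18776597-18776896 on the plus strand for Cldn5 and chr4:118489800-118490099 on the minus strand for Tie1. Capitals mark letters searched on both strands. These were GGAAG, a core bound by ETS factors, and ACAAT, a core bound by SOX factors. TGGGAA, the core bound by the Notch effector Rbpj, was also searched and can overlap GGAAG. No other forms of these cores were searched.
Gja4: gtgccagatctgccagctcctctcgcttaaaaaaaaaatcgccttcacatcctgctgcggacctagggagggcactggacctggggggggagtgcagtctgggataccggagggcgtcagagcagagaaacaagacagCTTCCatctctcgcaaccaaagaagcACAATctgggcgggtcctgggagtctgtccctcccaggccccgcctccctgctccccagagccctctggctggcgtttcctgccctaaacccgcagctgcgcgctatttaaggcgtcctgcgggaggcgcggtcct
Gja5: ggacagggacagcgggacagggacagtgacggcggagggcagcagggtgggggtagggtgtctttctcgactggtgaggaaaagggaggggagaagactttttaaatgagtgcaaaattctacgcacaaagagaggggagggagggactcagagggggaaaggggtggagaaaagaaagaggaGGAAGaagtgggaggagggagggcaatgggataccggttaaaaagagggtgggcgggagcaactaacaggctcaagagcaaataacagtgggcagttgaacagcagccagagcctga
Cldn5: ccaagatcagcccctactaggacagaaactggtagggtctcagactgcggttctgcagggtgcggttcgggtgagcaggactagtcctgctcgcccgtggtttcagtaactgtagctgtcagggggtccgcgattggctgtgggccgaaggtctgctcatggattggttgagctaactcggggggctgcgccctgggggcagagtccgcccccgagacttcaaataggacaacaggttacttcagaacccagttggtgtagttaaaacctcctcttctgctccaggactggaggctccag
Tie1: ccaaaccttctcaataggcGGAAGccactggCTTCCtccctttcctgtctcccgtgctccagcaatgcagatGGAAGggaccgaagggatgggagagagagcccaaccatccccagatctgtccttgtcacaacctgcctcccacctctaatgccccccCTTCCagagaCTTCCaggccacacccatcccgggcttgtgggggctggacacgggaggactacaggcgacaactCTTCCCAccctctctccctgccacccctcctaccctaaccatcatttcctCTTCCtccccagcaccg
The Gja4 window held 1 match to GGAAG and 1 to ACAAT, the Gja5 window 1 to GGAAG and the Cldn5 window 0 of any of the 3. The Tie1 window held 7 to GGAAG and 1 to TGGGAA. Its GGAAG count was the highest of all the endothelial windows, so Tie1 is not typical of genes with fold changes near 0. Among other such genes, the window of Eng held 2 matches to GGAAG, that of Selp 3 and that of Efnb2 0. Promoters were in the table for 20 of the 35 endothelial genes, as 24 windows. GGAAG was in 75.0% of these windows against 71.4% of all 32851 windows, ACAAT in 29.2% against 31.0%, and TGGGAA in 6 windows against 25.6% of all windows. A match describes the letters and is no evidence of binding.

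The venous genes did not separate the groups. Nr2f2, the nuclear receptor that sets venous identity, was at 8.75, 11.8, 13.99 and 9.73 RPKM in MSC replicates 1 to 4, against 10.1, 15.1, 10.7 and 13.7 RPKM in vehicle replicates 1 to 4. Ephb4, the venous ephrin receptor, measured 18.2, 28.0, 34.4 and 23.0 RPKM in MSC samples 1 to 4, against 24.4, 23.8, 20.1 and 24.3 RPKM in vehicle samples 1 to 4. Their log2 fold changes were -0.15 and 0.13, with 95% intervals of -0.52 to 0.22 and -0.26 to 0.51. Aplnr, the apelin receptor gene, strong in veins of developing vessels, had 25.8, 47.5, 59.9 and 29.2 RPKM in the 4 MSC samples, against 6.60, 43.4, 42.2 and 39.2 RPKM in the 4 vehicle samples. Vehicle replicate 1 stood far below every other sample. With it Aplnr had a log2 fold change of 0.51, and without it -0.12, so the sign rests on that sample. The ligand Apln was also lowest in vehicle replicate 1.

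**Figure D5:**
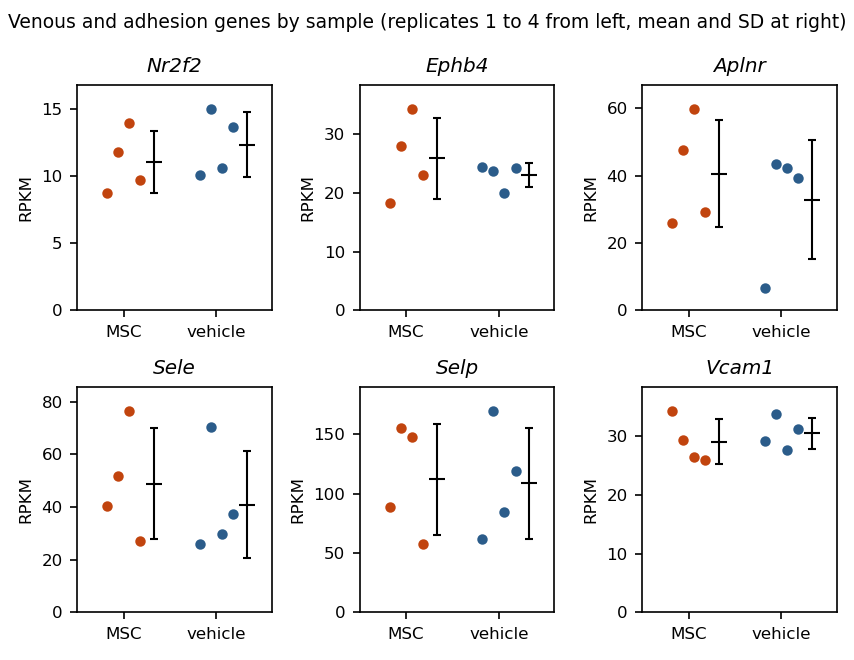
RPKM (y axis, from 0) of the 3 venous genes (upper row) and 3 adhesion genes (lower row) in MSC and vehicle samples, 1 point per sample with replicates 1 to 4 from left to right, and the mean with SD (n = 4 each). The groups overlap in all 6 genes, and the low Aplnr point of 6.60 RPKM is vehicle replicate 1.

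Adhesion genes were abundant in both groups. Sele, the E-selectin gene, induced by cytokines in endothelium, was at 40.3, 51.6, 76.5 and 27.0 RPKM in MSC replicates 1 to 4, against 25.9, 70.5, 29.8 and 37.4 RPKM in vehicle replicates 1 to 4. Selp, the P-selectin gene, stored in endothelial granules and in platelets, measured 88.9, 155, 147 and 57.7 RPKM in MSC samples 1 to 4, against 61.8, 169.8, 85.0 and 119 RPKM in vehicle samples 1 to 4. The selectin genes varied alike: MSC replicate 4 and vehicle replicate 1 were the 2 lowest samples in both, and vehicle replicate 2 was the highest vehicle sample in both. Their means were 48.8 ± 20.97 RPKM among MSC samples and 40.9 ± 20.3 RPKM among vehicle samples (SD, n = 4 each) for Sele and 112 ± 46.9 RPKM among MSC samples and 109 ± 46.9 RPKM among vehicle samples (SD, n = 4 each) for Selp, with log2 fold changes of 0.26 and 0.04. Vcam1, the ligand of the integrin that contains Itga4, had 34.3, 29.4, 26.5 and 26.0 RPKM in the 4 MSC samples, against 29.2, 33.7, 27.7 and 31.1 RPKM in the 4 vehicle samples. Its 8 values lay within 26.0 to 34.3 RPKM in MSC and 27.7 to 33.7 RPKM in vehicle samples, with a 95% interval of -0.31 to 0.17 for the log2 fold change.

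The list of adhesion partners holds leukocyte ligands and integrins with a few endothelial junction and adhesion genes. Of its 13 genes 12 were tested, 10 had a log2 fold change above 0 (59.5% of all genes did), and the median was 0.13, beside 0.04 for all genes. In limma 0 passed, and 4 had an unadjusted p under 0.05, all higher in MSC samples, against 10.1% of all genes in that direction. Icam1, Itga4 and Itgb1 had 0.02, 0.03 and 0.00. Selplg, the leukocyte ligand of P-selectin, was at 45.9, 48.1, 38.9 and 33.8 RPKM in MSC replicates 1 to 4, against 24.8, 31.1, 29.6 and 29.2 RPKM in vehicle replicates 1 to 4. Itgb2, the beta chain of leukocyte integrins, measured 138, 134, 95.02 and 104 RPKM in MSC samples 1 to 4, against 74.7, 83.5, 89.8 and 70.7 RPKM in vehicle samples 1 to 4. Itgal, the alpha chain of LFA-1, had 11.05, 12.8, 12.4 and 9.62 RPKM in the 4 MSC samples, against 2.56, 6.64, 7.18 and 9.11 RPKM in the 4 vehicle samples. In these 3 genes every MSC sample lay above every vehicle sample, against 5.61% of all genes, with log2 fold changes of 0.52, 0.55 and 0.85 (limma adjusted p = 0.108, 0.116 and 0.186). Itgam, a further integrin chain, had 0.33 with overlapping groups. Beside them, 8 macrophage markers summed to between 3095 and 5146 RPKM in MSC and between 2449 and 3282 RPKM in vehicle samples, with 7 of 8 log2 fold changes above 0 and a median of 0.29. Neutrophil markers summed to between 561 and 1349 RPKM in MSC and between 218 and 803 RPKM in vehicle samples, with 6 of 6 tested above 0 and a median of 0.79. Their part in these values was not tested.

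To describe the classes relative to endothelial markers, each gene was set against the geometric mean of Pecam1, Cdh5 and Tie1, given as a log2 ratio of RPKM with no test. Other cells such as platelets also carry Pecam1, so this mean is not a measure of endothelial RNA alone. The geometric mean was 61.7, 94.2, 103 and 69.3 RPKM in MSC replicates 1 to 4, against 80.8, 80.5, 83.2 and 96.2 RPKM in vehicle replicates 1 to 4. The log2 ratio of Sox17 was -7.30, -6.72, -6.90 and -6.27 in MSC samples, against -5.85, -5.49, -5.28 and -6.09 in vehicle samples. The log2 ratio of Gja4 was -6.00, -5.57, -5.83 and -5.77 in MSC samples, against -5.34, -4.36, -4.55 and -5.47 in vehicle samples. The log2 ratio of Gja5 was -8.61, -8.87, -7.61 and -12.24 in MSC samples, against -7.31, -5.34, -5.15 and -7.20 in vehicle samples. In all 3 the MSC and vehicle ratios did not overlap, and on this scale 2.6% of all genes tested were lower without overlap and 1.2% higher. Gja5 is not among the genes tested and had overlapped in RPKM, and Sox17 is among them only through its vehicle values. The mean ratios of Dll4 were -3.39 ± 0.47 among MSC samples and -3.72 ± 0.81 among vehicle samples (SD, n = 4 each), those of Efnb2 -4.26 ± 0.32 among MSC samples and -4.47 ± 0.41 among vehicle samples (SD, n = 4 each) and those of Hey1 -5.79 ± 0.22 among MSC samples and -5.74 ± 0.63 among vehicle samples (SD, n = 4 each), all with overlapping groups. The venous gene Nr2f2 averaged -2.88 ± 0.08 among MSC samples and -2.80 ± 0.27 among vehicle samples (SD, n = 4 each), and Ephb4 averaged -1.67 ± 0.10 among MSC samples and -1.88 ± 0.16 among vehicle samples (SD, n = 4 each). Nr2f2 and Ephb4 ratios lay close together among MSC samples, although the RPKM levels of these samples had differed. The log2 ratio of Cldn5 was -3.74, -3.86, -4.37 and -4.16 in MSC samples, against -2.91, -3.88, -2.65 and -3.12 in vehicle samples. Vehicle replicate 2 was again the vehicle sample that overlapped the MSC range.

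Endothelial genes outside the 35 also had none that passed. Of 28 such genes, 27 were tested, 21 had a log2 fold change below 0 (40.5% of all genes did), the median was -0.15 and 0 passed in limma. An unadjusted p under 0.05 was found in 4, all lower, against 6.36% of all genes in that direction and 16.5% in either. Gpr116 (Adgrf5), an adhesion G-protein-coupled receptor gene, was at 19.95, 28.2, 30.3 and 21.3 RPKM in MSC replicates 1 to 4, against 39.6, 30.6, 31.7 and 31.7 RPKM in vehicle replicates 1 to 4. Gpihbp1, which anchors lipoprotein lipase on capillary endothelium, measured 6.76, 18.3, 17.2 and 7.23 RPKM in MSC samples 1 to 4, against 20.5, 17.4, 29.0 and 21.002 RPKM in vehicle samples 1 to 4. Cyyr1 had a log2 fold change of -0.46 and Bmp6, a BMP ligand gene, -0.48. In Gpr116 every MSC sample lay below every vehicle sample (4.17% of all genes), while Gpihbp1 overlapped and was again lowest in MSC replicates 1 and 4, where adipocyte markers were lowest.

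Of 11 genes of flow response, vessel tone and anticoagulation, 10 were tested, 6 were below 0, the median was -0.07 and 0 passed in limma (3 had an unadjusted p under 0.05, all lower, against 6.36% of all genes). The 4 with log2 fold changes above 0 were Klf2 (0.25), Klf4 (0.10), Ptgis (0.29) and Ptgs1 (0.10), all with overlapping groups. Edn1, the gene of the vasoconstrictor endothelin 1, had 6.92, 5.74, 5.36 and 6.96 RPKM in the 4 MSC samples, against 12.7, 10.1, 8.35 and 10.9 RPKM in the 4 vehicle samples. Cav1, the main caveolar protein gene, was at 141, 169, 157 and 154 RPKM in MSC replicates 1 to 4, against 186, 187, 246 and 179.6 RPKM in vehicle replicates 1 to 4. Procr, the endothelial protein C receptor gene, measured 19.5, 18.05, 18.3 and 19.1 RPKM in MSC samples 1 to 4, against 34.6, 19.7, 23.9 and 20.2 RPKM in vehicle samples 1 to 4. In these 3 the groups did not overlap (4.17% of all genes in that direction), with log2 fold changes of -0.66, -0.35 and -0.34 (limma adjusted p = 0.0679, 0.186 and 0.327), and Cyp1b1 had -0.40 with overlap. Cav1 is also abundant in adipocytes, whose 14 markers had log2 fold changes below 0 with none passing; their part in the Cav1 values was not tested. Edn2 was at 0 in all 8 samples. In the angiopoietin list, 5 of 6 genes were tested, 5 had a log2 fold change below 0, the median was -0.07 and 0 passed (2 had an unadjusted p under 0.05 in limma, both lower, against 6.36% of all genes). Svep1, an extracellular protein gene of the Tie pathway, had 6.13, 12.9, 8.81 and 5.10 RPKM in the 4 MSC samples, against 18.3, 16.2, 13.8 and 14.5 RPKM in the 4 vehicle samples. The groups did not overlap, and the log2 fold change was -0.92 (limma adjusted p = 0.112). Angptl4 had -0.56, Angpt1 -0.05 and Vav3 -0.03.

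Some of the 35 genes are shared with other cells. Platelets carry Vwf, Selp and Pecam1, and the 10 platelet markers summed to between 522 and 819 RPKM in MSC and between 376 and 607 RPKM in vehicle samples. All 8 tested had log2 fold changes above 0 (median 0.38) with none passing, and most of each sum was Pf4. Red cells carry Aqp1, and 7 red cell genes summed to between 24.2 and 35.004 RPKM in MSC and between 24.1 and 64.5 RPKM in vehicle samples (median log2 fold change -0.26 over 3 tested). Lymphatic endothelial markers summed to between 61.7 and 93.9 RPKM in MSC and between 49.3 and 108 RPKM in vehicle samples, with Ccl21a at 0 throughout and a median of -0.28 over 4 tested. Mural cells can carry Gja4, and 6 pericyte markers summed to between 32.8 and 43.8 RPKM in MSC and between 43.9 and 64.9 RPKM in vehicle samples. Of these, 5 of 6 log2 fold changes were below 0 (median -0.43), with Rgs5 at -1.28 (limma adjusted p = 0.0805) and Cspg4 at -0.90. Smooth muscle markers summed to between 220.2 and 289 RPKM in MSC and between 161 and 288 RPKM in vehicle samples, with a median of 0.07 over 6 tested. Fibroblast markers summed to between 3075 and 4226 RPKM in MSC and between 3149.6 and 5025 RPKM in vehicle samples, with a median of -0.15 over 8 tested. Schwann cell markers were low, at 5.44 to 6.30 RPKM in MSC and 5.68 to 7.28 RPKM in vehicle samples, with a median of -0.24 over 2 tested. Their part in the endothelial values was not tested.

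In GRCm38, Sox17 spans chr1:4490931-4497354, Gja4 chr4:127311421-127314039, Gja5 chr3:96904693-97077416 and Cldn5 chr16:18776847-18778262, all protein-coding in GENCODE vM21. Exons of 11 of the 35 genes overlap an exon of another gene, among them Sox17, Gja5, Dll4, Nr2f2, Ephb4, Selp, Vcam1, Eng and Nos3, where that gene lies on the opposite strand. Whether counting used strand is not stated in the labels, so these values are uncertain where strand was not used. Egfl7 and Ramp2 overlap an exon of another gene on the same strand, so their values are uncertain either way.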

How the data were processed

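RNA of mouse fistula outflow veins was measured in 4 MSC and 4 vehicle samples, with libraries made from 0.5 μg of total RNA with the TruSeq V2 RNA-Seq kit, per the labels' protocols. The authors deposited RPKM values per gene, 1 column per sample. The submitters' processing notes name mm10 as the build. The sources used here do not state the aligner, counter, annotation or strand setting. Whole reads were recovered from the steps of the deposited RPKM values (100% of 143006 values above 0 came out whole, tolerance 0.001). Depth limits genes with few reads, such as Gja5. With limma 3.58.1 under R 4.3.3, log2(RPKM + 1) was tested 2-sided, with the variance trended on the mean, with Benjamini-Hochberg adjustment over the 12129 genes averaging 1 RPKM or more, at a threshold of 0.05. The fit was tested on simulated data. Alternatives were other pseudocounts, filters, scalings, weights, a covariate, limma voom on the recovered reads and leaving out each sample. All 35 genes are named. Of the other lists, the genes named are among the up to 4 with the lowest unadjusted p. Exceptions are genes at 0 in all samples, the adhesion partners Icam1, Itga4 and Itgb1, and Klf2, Klf4, Ptgis and Ptgs1 of the flow response list. Several cell type lists are given only as sums and medians. The members and lists were chosen with earlier results of these data known.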

Additional observations from a re-analysis of the deposited data

Results flagged for a closer look

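Within-group outliers were sought in 70 groups of 4 samples, by the gap of the highest or lowest sample to its nearest neighbour as a share of the group's range. Chance flags about 1 in 20 such groups, and 5 were flagged, 3 of them in vehicle replicate 1. Sox17 was lowest in MSC replicate 1 at 0.391 RPKM, with the nearest MSC sample at 0.858 RPKM. Nos3 was highest in vehicle replicate 1 at 30.4 RPKM, with the nearest vehicle sample at 18.1 RPKM. Sox7 was lowest in vehicle replicate 1 at 4.73 RPKM, with the nearest at 8.96 RPKM. Aplnr was lowest in vehicle replicate 1 at 6.60 RPKM, with the nearest at 39.2 RPKM. Ephb4 was lowest in vehicle replicate 3 at 20.1 RPKM, with the nearest at 23.8 RPKM.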

How the results depend on the processing

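No endothelial gene passed the adjusted threshold under any of the alternatives run (658 values, lowest limma adjusted p = 0.0501, for Sox17 with quantile normalization), and 55 values changed sign. The 3 genes called higher and 25 called lower over the whole table became 1 and 9 with a pseudocount of 0.1, 9 and 50 with a pseudocount of 5, 11 and 61 with median-ratio scaling, 33 and 96 with quantile normalization, 27 and 46 with array weights, 1 and 0 with no filter, and 0 and 0 once the adipocyte score was a covariate. They were 6 and 31 with limma voom, 6 and 25 with a filter of 5 RPKM, and 2 and 19 with no trend. With the covariate, log2 fold changes nearer 0 were -0.04 for Ptprb, -0.21 for Gja4, -0.44 for Sox17 and -0.59 for Cldn5; a replicate block gave Ptprb an unadjusted limma p of 0.0825. Leaving out 1 sample gave 0 to 31 higher and 0 to 140 lower. The replicate numbers did not pair the samples (correlations of same-numbered samples 0.143, -0.00282, -0.332 and -0.122), and a replicate block gave 0 higher and 0 lower. With the covariate the median log2 fold change was 0.49 over the 34 genes, 0.51 for pan-endothelial, 0.70 for venous and 1.22 for adhesion genes. With a filter of 5 RPKM the arterial median was 0.33, but it rested on Apln and Dll4 alone. The other arterial genes, Sox17, Gja4 and Gja5 among them, averaged under 5 RPKM and were left out. Signs reversed with the covariate for Pecam1 (0.23), Cdh5 (0.68), Tek (0.34), Vwf (0.48), Nos3 (0.16), Esam (0.51), Erg (0.31), Emcn (0.29), Robo4 (0.66), Aqp1 (0.24), Mmrn2 (0.53), Ramp2 (0.30), Hey1 (0.21), Bmx (0.15) and Nr2f2 (0.37). They reversed with array weights for Cdh5 (0.10), Robo4 (0.0411), Bmx (0.0661) and Selp (-0.0582), with median-ratio scaling for Tie1 (-0.0289) and Selp (-0.0060), with quantile normalization for Tie1 (-0.0275), and with limma voom for Tie1 (-0.0232) and Selp (-0.0032). Leaving out 1 sample gave ranges across 0 for Cdh5 (-0.14 to 0.15), Tie1 (-0.12 to 0.13), Eng (-0.11 to 0.23), Erg (-0.16 to 0.0119), Robo4 (-0.23 to 0.0938), Egfl7 (-0.18 to 0.22), Plvap (-0.0707 to 0.22), Clec14a (-0.0518 to 0.41), Sox7 (-0.12 to 0.23), Dll4 (-0.12 to 0.42), Hey1 (-0.28 to 0.0149), Bmx (-0.12 to 0.0190), Ephb4 (-0.0175 to 0.28), Aplnr (-0.12 to 0.73) and Selp (-0.20 to 0.32). The cause was not tested.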
